A study of Mus musculus with 12 samples.

Results

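The genes described here are the TNF superfamily ligands and receptors, measured by bulk RNA sequencing in the peritoneal lavage cells of C57BL/6J mice. They were taken from the gene symbols of the count table: every Tnfsf or Tnfrsf symbol followed by a number and at most 1 letter, together with Tnf, Lta, Ltb, Ltbr, Fas, Fasl, Cd40, Cd40lg, Cd27 and Cd70. This gave 41 genes of 55401, of which 17 encode ligands and 24 encode receptors. A filter on low counts kept 38 of them, 16 ligands and 22 receptors. The ligand Cd70, the soluble decoy receptor Tnfrsf11b and the plasma cell receptor Tnfrsf17 fell below it.

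Each of 3 groups held 4 libraries, which the submitters call biological replicates. ID8-FSHR lavage came from mice given ID8 cells labelled as carrying the follicle-stimulating hormone receptor (FSHR), ID8 lavage from mice given the parent cells, and uninjected lavage from mice given nothing. ID8 cells derive from mouse ovarian surface epithelium, and both lines are labelled (defb29/Vegf-a), for a derivative with added Defb29, a beta-defensin, and Vegfa, an angiogenic factor. Tumour cells went into the peritoneal cavity and the lavage was taken on day 7. The labels give the dose as 4000000 cells in one place and 5000000 in another, they do not give the age of the mice, and the ID8-FSHR titles skip numbers for no stated reason. An injection without tumour cells was not among the groups, so effects of tumour and of injection cannot be told apart.

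TNF superfamily ligands are mostly trimeric proteins of the cell surface, some of them shed, and their receptors are recognised by cysteine-rich extracellular repeats. Receptors with a death domain, such as Fas and Tnfrsf10b, can recruit caspases, whereas others bind TRAF adaptors and feed the NF-kappaB and MAP kinase pathways. In the peritoneal cavity, which is rich in resident macrophages and B cells, the family is best known for cytokines of inflammation such as TNF, for the B cell survival factor BAFF (Tnfsf13b) and its receptors, and for costimulatory receptors of T and NK cells.

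Total counts per library ran from 48355885 to 57636459 in ID8-FSHR, from 47419608 to 64333677 in ID8 and from 50327658 to 57991979 in uninjected lavage. The 41 genes took 0.0733% to 0.0888% of all counts in ID8-FSHR, 0.0754% to 0.0799% in ID8 and 0.0937% to 0.0954% in uninjected libraries. Levels are given as CPM, which scales counts to library sizes adjusted by TMM, and 3 counts, the upper limit that a count of 0 allows, correspond to 0.0444 to 0.0653 CPM. Fshr itself had 9 counts over the ID8-FSHR libraries, 2 over ID8 and 0 over uninjected, too few to check that label. Defb29 stood at 18.5 ± 6.88 CPM in ID8-FSHR and 26.2 ± 3.76 CPM in ID8 (SD, n = 4 each), with 0 counts in uninjected lavage. The tumour library ID8-FSHR replicate 2 was set apart by a first principal component of -43.2, against -96.1 to -87.4 in the other 7.

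The lavage is a mixture, and several cell types differed with the groups. The summed level of 10 B cell markers was 301.2 to 545 CPM in ID8-FSHR and 342 to 516 CPM in ID8, against 2877 to 3829 CPM in uninjected lavage. That of 10 pan-leukocyte markers was 3267 to 5349 CPM in ID8-FSHR and 3046 to 3600 CPM in ID8, against 7055 to 7586 CPM in uninjected lavage. That of 9 mesothelial and tumour markers was 887 to 2310 CPM in ID8-FSHR, with replicate 2 the lowest, 2531 to 3184 CPM in ID8 and 19.8 to 22.5 CPM in uninjected lavage. That of 10 large peritoneal macrophage markers was 5231 to 10290 CPM in ID8-FSHR and 8298 to 10816 CPM in ID8. In uninjected lavage it was 19430 to 23673 CPM. The 7 monocyte and small macrophage markers summed to 4803 to 7019 CPM in ID8-FSHR and 7793 to 10307 CPM in ID8. Their uninjected sum was 19493 to 25010 CPM. Of the 10, 8 fell and 1 rose in ID8-FSHR, and 9 fell and 1 rose in ID8. Of the 7, 3 fell and 3 rose in ID8-FSHR, and 4 fell and 1 rose in ID8. In a bulk sample, fewer cells of a type and less RNA per cell cannot be told apart.

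These 4 promoters are shown because their genes mark the contrasts described first: Lta, Tnf and Ltb lie next to each other on chromosome 17 and all stood lower in ID8 than in uninjected lavage, and Tnfrsf12a, on the same chromosome, stood higher in both tumour groups. They were chosen after the values were seen. Each window runs from 250 bases before to 50 after the annotated start (RefSeq, GRCm38.p6), and capitals mark matches to 3 motifs on either strand. The motifs are NF-kappaB (GGG and TTTCC with any 2 bases between them, in Ltb), SP1 (GGGCGG, in Tnf and, with 5 matches of which 2 adjoin, in Tnfrsf12a) and the letters of a TATA box (TATAAA, in Lta and Tnf). Matches were taken anywhere in the window, and the TATAAA of Lta lies further before the start than that of Tnf.
Lta, chr17:35205302-35205601, minus strand: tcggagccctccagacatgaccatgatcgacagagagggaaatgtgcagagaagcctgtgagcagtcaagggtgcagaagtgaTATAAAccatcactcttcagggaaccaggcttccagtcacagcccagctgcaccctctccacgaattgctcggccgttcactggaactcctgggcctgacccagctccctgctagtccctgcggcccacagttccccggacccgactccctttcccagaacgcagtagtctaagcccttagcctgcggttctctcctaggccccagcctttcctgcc
Tnf, chr17:35201958-35202257, minus strand: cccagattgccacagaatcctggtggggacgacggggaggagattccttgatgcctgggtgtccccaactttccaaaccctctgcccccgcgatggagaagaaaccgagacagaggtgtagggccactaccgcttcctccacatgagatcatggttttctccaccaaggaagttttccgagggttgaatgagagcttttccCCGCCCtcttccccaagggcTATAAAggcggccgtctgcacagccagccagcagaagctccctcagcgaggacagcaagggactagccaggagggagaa
Ltb, chr17:35194257-35194556, plus strand: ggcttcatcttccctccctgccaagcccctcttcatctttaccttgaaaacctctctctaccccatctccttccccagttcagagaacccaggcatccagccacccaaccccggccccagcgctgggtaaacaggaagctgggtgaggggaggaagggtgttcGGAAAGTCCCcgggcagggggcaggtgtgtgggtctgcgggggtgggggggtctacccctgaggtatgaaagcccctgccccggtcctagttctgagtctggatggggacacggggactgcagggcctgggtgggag
Tnfrsf12a, chr17:23677400-23677699, minus strand: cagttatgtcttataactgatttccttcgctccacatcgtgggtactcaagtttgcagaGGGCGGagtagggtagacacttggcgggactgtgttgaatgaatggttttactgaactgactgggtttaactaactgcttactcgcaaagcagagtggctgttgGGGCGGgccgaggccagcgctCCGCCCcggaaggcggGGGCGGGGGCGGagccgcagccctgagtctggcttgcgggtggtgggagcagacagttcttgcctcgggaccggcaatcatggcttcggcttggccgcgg

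Among 32851 RefSeq mouse promoters of this length, 1.63% held the NF-kappaB letters, 35.7% the SP1 letters and 13.6% the TATA box. RefSeq windows, 35 in all, were given for 31 of the 41 genes, and a gene was counted if any of its windows matched. Of these 31 the NF-kappaB letters were in 3 (Ltb, Tnfrsf25 and Tnfrsf9), the SP1 letters in 16 and the TATA box in 6. These counts are by gene and the percentages by promoter, so they are not on the same footing. Another motif searched, AP-1 (TGANTCA), was in 7.81% of all promoters and in 6 of the 31 genes but in none of the windows shown. A match is a description of the letters only.

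Against uninjected lavage, ID8-FSHR lavage had 11 family genes higher and 18 lower of 38 tested, and 9 were not called (edgeR's quasi-likelihood test, Benjamini-Hochberg adjusted p under 0.05 over 16915 genes). That is 76.3% called, beside 64.5% of all tested genes, of which 33.9% were higher and 30.6% lower. ID8 lavage had 6 higher, 22 lower and 10 not called, 73.7% beside 64.1% of all tested genes, of which 32.7% were higher and 31.4% lower. The median log2 fold change of the 38 genes was -0.36 for ID8-FSHR and -0.62 for ID8, beside 0.00083 and -0.03 over all tested genes. Both comparisons use the same uninjected libraries, so their shared calls are not independent. In them 17 genes were lower in both and 6 higher in both, and none was called in opposite directions.

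Between the tumour groups, ID8-FSHR had 5 members higher and 2 lower than ID8, and 31 were not called. This is 18.4% of the tested members, beside 11.6% of all tested genes, of which 6.04% were higher and 5.56% lower, and the median log2 fold change was 0.17 beside -0.01. Without ID8-FSHR replicate 2 the counts were 2 higher and 3 lower than ID8, and 11 higher and 19 lower than uninjected lavage. The first of these counts also moved by over 1.5 times without ID8-FSHR replicate 1 (9), ID8-FSHR replicate 4 (1), ID8 replicate 2 (2), ID8 replicate 3 (1) or ID8 replicate 4 (1). By role, ligands accounted for 5 rises and 7 falls in ID8-FSHR and 1 rise and 9 falls in ID8 against uninjected lavage. Receptors accounted for 6 rises and 11 falls in ID8-FSHR and 5 rises and 13 falls in ID8. Libraries did not overlap for 22 of 38 members in ID8-FSHR against uninjected lavage (57% of all tested genes) and for 28 in ID8 against uninjected lavage (62.5% of all tested genes).

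**Figure D1:**
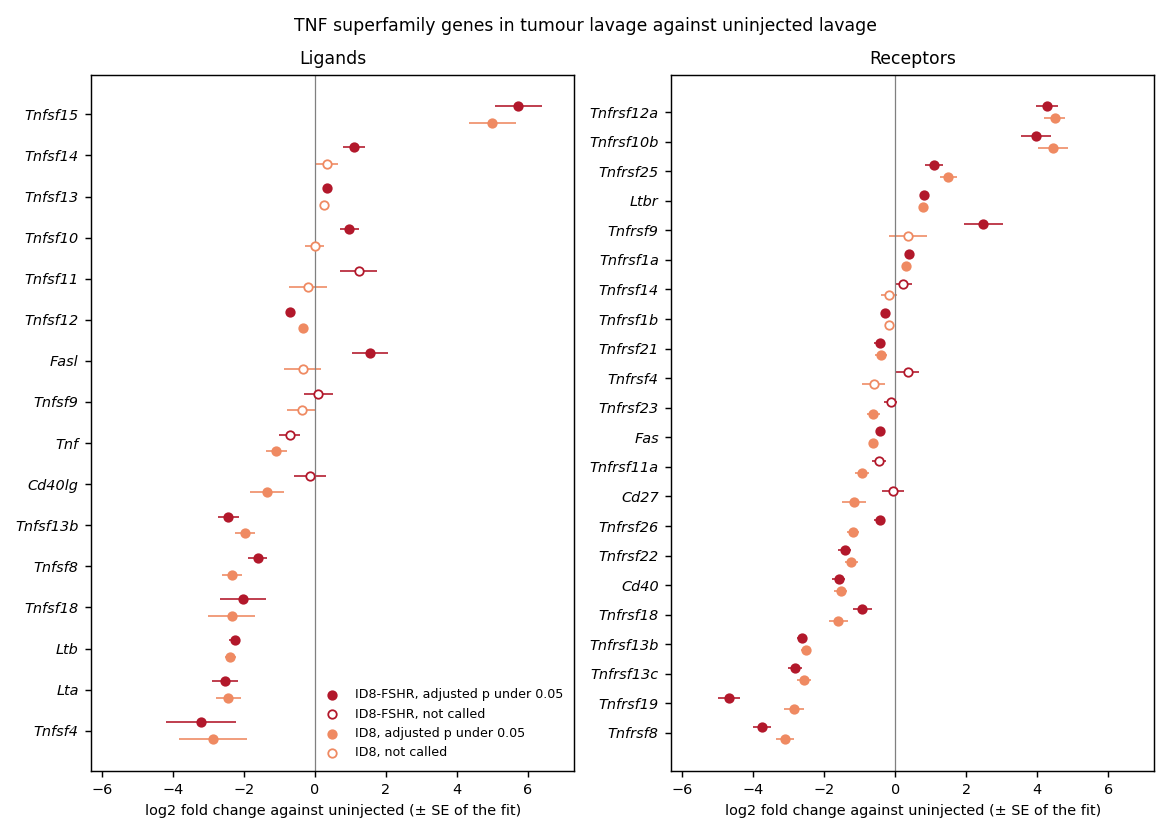
Log2 fold change of each tested ligand (left) and receptor (right) in ID8-FSHR and in ID8 lavage against uninjected lavage, with bars for the SE of the edgeR fit (n = 4 libraries a group). Tnfsf15 at 5.72 and Tnfrsf19 at -4.68, both in ID8-FSHR, mark the ends of the range.

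The lymphotoxin genes fell in tumour lavage, while the receptors Ltbr and Tnfrsf1a rose. Ltb (ENSMUSG00000024399.5, chromosome 17, 35194439 to 35196320, plus strand of GRCm38) encodes lymphotoxin beta, the membrane anchor of the lymphotoxin heterotrimer made by B and T cells. Ltb had 13.5, 15.0, 11.9 and 13.7 CPM in ID8-FSHR, 13.2, 9.70, 15.5 and 11.2 CPM in ID8 and 51.9, 63.9, 69.7 and 74.1 CPM in uninjected lavage. Every tumour library lay below every uninjected library. Ltb fell in ID8-FSHR (log2 fold change -2.26 with SE 0.15, edgeR adjusted p = 4.36e-08) and in ID8 (log2 fold change -2.39 with SE 0.15, edgeR adjusted p = 2.81e-08). Lta, the soluble partner and a ligand of both TNF receptors, had 0.300, 0.477, 0.721 and 0.329 CPM in ID8-FSHR, 0.770, 0.524, 0.279 and 0.350 CPM in ID8 and 1.95, 2.95, 2.99 and 2.64 CPM in uninjected lavage. Its tumour libraries were all below the uninjected ones, and it fell in ID8-FSHR (log2 fold change -2.53 with SE 0.37, edgeR adjusted p = 4.99e-05) and in ID8 (log2 fold change -2.44 with SE 0.36, edgeR adjusted p = 6.42e-05).

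Tnf, the inflammatory cytokine (ENSMUSG00000024401.14, chromosome 17, 35199381 to 35202007, minus strand of GRCm38), stayed below 5 CPM throughout. Tnf had 1.39, 3.30, 1.84 and 3.92 CPM in ID8-FSHR, 1.76, 1.96, 2.57 and 1.75 CPM in ID8 and 3.43, 4.72, 4.89 and 4.01 CPM in uninjected lavage. All ID8 libraries lay below all uninjected ones, and ID8-FSHR replicate 4 overlapped the uninjected range. Tnf fell in ID8 (log2 fold change -1.09 with SE 0.30, edgeR adjusted p = 0.00617). In ID8-FSHR the difference did not pass the threshold (log2 fold change -0.71 with SE 0.29, edgeR adjusted p = 0.0505). Tnf passed as lower there under DESeq2 (adjusted p = 0.0467), a filter of at least 1 CPM in 4 libraries (adjusted p = 0.0421), a replicate block (adjusted p = 0.0386), removal of ID8-FSHR replicate 4 (adjusted p = 0.0126) and removal of uninjected replicate 1 (adjusted p = 0.0477).

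Ltbr and Tnfrsf1a bind these ligands. Ltbr, which signals through the non-canonical NF-kappaB pathway, is carried mainly by stromal and myeloid cells and not by lymphocytes. Ltbr had 56.7, 55.5, 53.9 and 60.9 CPM in ID8-FSHR, 54.6, 59.7, 49.6 and 59.0 CPM in ID8 and 36.2, 30.0, 30.8 and 32.2 CPM in uninjected lavage. It was higher in every tumour library than in any uninjected one and rose in ID8-FSHR (log2 fold change 0.81 with SE 0.08, edgeR adjusted p = 1.6e-06) and in ID8 (log2 fold change 0.79 with SE 0.08, edgeR adjusted p = 2.18e-06). Tnfrsf1a, the TNF receptor with a death domain, had 202, 220.5, 209 and 218 CPM in ID8-FSHR, 200.5, 216, 189 and 198 CPM in ID8 and 179.8, 153, 158 and 157 CPM in uninjected lavage. The tumour libraries all lay above the uninjected ones, by little, in ID8-FSHR (log2 fold change 0.39 with SE 0.07, edgeR adjusted p = 0.000209) and in ID8 (log2 fold change 0.31 with SE 0.07, edgeR adjusted p = 0.00123).

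Tnfrsf1b, the TNF receptor without a death domain and mainly of leukocytes, did not rise. Tnfrsf1b had 121, 190.0, 159.8 and 159 CPM in ID8-FSHR, 171, 166, 167 and 175 CPM in ID8 and 215, 165, 192 and 199 CPM in uninjected lavage. It passed the threshold as lower in ID8-FSHR (log2 fold change -0.29 with SE 0.12, edgeR adjusted p = 0.0413) and not in ID8 (log2 fold change -0.18 with SE 0.12, edgeR adjusted p = 0.18). This call was lost under DESeq2 (adjusted p = 0.0898), median-of-ratios size factors (adjusted p = 0.0686), total count scaling (adjusted p = 0.385), a replicate block (adjusted p = 0.069), a fit of only the 2 groups (adjusted p = 0.089), removal of ID8-FSHR replicate 1, 3 and 4 (adjusted p = 0.107, 0.0716 and 0.0737) and removal of uninjected replicate 1, 3 and 4 (adjusted p = 0.121, 0.073 and 0.087). Tnfsf14, also named LIGHT, is a ligand of Ltbr and of Tnfrsf14. Tnfsf14 had 5.46, 7.88, 5.79 and 4.22 CPM in ID8-FSHR, 3.14, 4.27, 2.01 and 4.20 CPM in ID8 and 2.05, 1.70, 2.99 and 4.16 CPM in uninjected lavage. It rose in ID8-FSHR (log2 fold change 1.10 with SE 0.31, edgeR adjusted p = 0.0078), while ID8 overlapped uninjected lavage and was not called (log2 fold change 0.32 with SE 0.31, edgeR adjusted p = 0.38). Tnfrsf14 had 13.0, 31.5, 24.2 and 27.0 CPM in ID8-FSHR, 17.00, 25.5, 13.8 and 16.0 CPM in ID8 and 20.9, 19.6, 18.4 and 22.6 CPM in uninjected lavage and was not called in any comparison. Without ID8-FSHR replicate 1, the lowest library, it passed as higher in ID8-FSHR than in ID8 (edgeR adjusted p = 0.0339) and than in uninjected lavage (edgeR adjusted p = 0.0468).

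**Figure D2:**
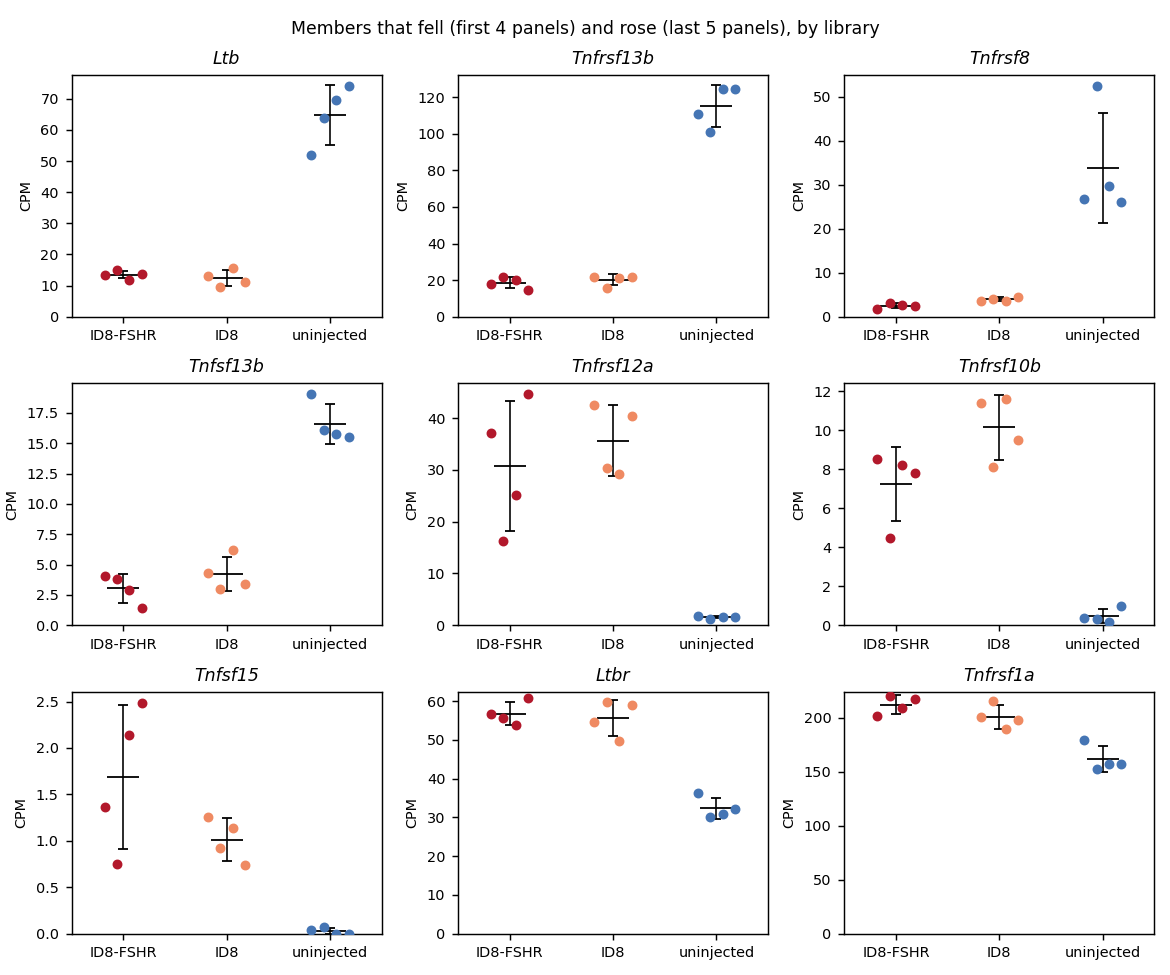
CPM of selected members in each library (points), with the group mean (line) and SD (bar), for ID8-FSHR, ID8 and uninjected lavage (n = 4 each). Ltb, Tnfrsf13b, Tnfrsf8 and Tnfsf13b sit far lower in all 8 tumour libraries, and Tnfrsf12a sits far higher, at 16.3 to 44.6 CPM in ID8-FSHR against 1.22 to 1.87 CPM in uninjected lavage.

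Of the genes of BAFF and APRIL, which sustain B cells, BAFF and the receptors Tnfrsf13c and Tnfrsf13b fell in both tumour groups. Tnfsf13b (BAFF) had 4.06, 3.80, 2.86 and 1.44 CPM in ID8-FSHR, 4.29, 3.00, 6.21 and 3.43 CPM in ID8 and 19.1, 16.1, 15.8 and 15.6 CPM in uninjected lavage. No tumour library reached the lowest uninjected one, and Tnfsf13b fell in ID8-FSHR (log2 fold change -2.45 with SE 0.30, edgeR adjusted p = 1.04e-05) and in ID8 (log2 fold change -1.97 with SE 0.29, edgeR adjusted p = 5.76e-05). Tnfrsf13c, the BAFF receptor of mature B cells, had 7.01, 10.9, 11.5 and 6.01 CPM in ID8-FSHR, 12.1, 10.1, 10.7 and 9.14 CPM in ID8 and 50.8, 70.02, 65.0 and 66.2 CPM in uninjected lavage. It fell in ID8-FSHR (log2 fold change -2.83 with SE 0.20, edgeR adjusted p = 7.89e-08) and in ID8 (log2 fold change -2.58 with SE 0.20, edgeR adjusted p = 1.53e-07), with no overlap. Tnfrsf13b, also named TACI (ENSMUSG00000010142.12, chromosome 11, 61126755 to 61149372, plus strand of GRCm38), binds both BAFF and APRIL and is high on innate-like B cells. Tnfrsf13b had 17.8, 21.5, 20.3 and 14.8 CPM in ID8-FSHR, 21.9, 15.7, 21.4 and 21.5 CPM in ID8 and 111, 101, 125 and 125 CPM in uninjected lavage. It fell in ID8-FSHR (log2 fold change -2.63 with SE 0.14, edgeR adjusted p = 7.28e-09) and in ID8 (log2 fold change -2.52 with SE 0.14, edgeR adjusted p = 8.53e-09), again with no overlap.

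APRIL itself, Tnfsf13, did not fall. Tnfsf13 had 14.7, 13.0, 17.9 and 14.3 CPM in ID8-FSHR, 12.8, 14.6, 15.1 and 13.3 CPM in ID8 and 13.8, 10.8, 11.4 and 11.04 CPM in uninjected lavage. It passed the threshold as higher in ID8-FSHR (log2 fold change 0.35 with SE 0.12, edgeR adjusted p = 0.0198) and not in ID8 (log2 fold change 0.25 with SE 0.12, edgeR adjusted p = 0.0844), and the ID8-FSHR call was lost under removal of ID8-FSHR replicate 3 (adjusted p = 0.0688) and removal of uninjected replicate 2 and 4 (adjusted p = 0.055 and 0.0516). In ID8 it passed as higher under DESeq2 (adjusted p = 0.0415), median-of-ratios size factors (adjusted p = 0.0431), total count scaling (adjusted p = 0.00607), a fit of only the 2 groups (adjusted p = 0.0207) and removal of uninjected replicate 1 (adjusted p = 0.0276). The exons of Tnfsf13 and of its neighbour Tnfsf12 overlap the readthrough gene Tnfsfm13, so the counting could have divided reads between them.

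Cd40, the receptor through which T cells license B cells and antigen-presenting cells, had 8.62, 17.05, 10.8 and 16.8 CPM in ID8-FSHR, 14.0, 14.9, 12.6 and 13.6 CPM in ID8 and 42.4, 37.6, 35.8 and 44.0 CPM in uninjected lavage. It fell in ID8-FSHR (log2 fold change -1.59 with SE 0.19, edgeR adjusted p = 7.92e-06) and in ID8 (log2 fold change -1.54 with SE 0.19, edgeR adjusted p = 1.04e-05), and no tumour library reached the uninjected range. Its ligand Cd40lg had 0.759, 1.29, 0.741 and 1.41 CPM in ID8-FSHR, 0.341, 0.504, 0.597 and 0.368 CPM in ID8 and 0.375, 2.27, 0.808 and 1.15 CPM in uninjected lavage. Cd40lg passed the threshold as lower in ID8 (log2 fold change -1.35 with SE 0.48, edgeR adjusted p = 0.0242) and not in ID8-FSHR (log2 fold change -0.14 with SE 0.46, edgeR adjusted p = 0.809), and the ID8 call was lost under removal of ID8 replicate 1 and 4 (adjusted p = 0.0663 and 0.0623) and removal of uninjected replicate 2 (adjusted p = 0.128). Tnfrsf8 (CD30), a receptor of activated lymphocytes, had 1.74, 3.14, 2.704 and 2.46 CPM in ID8-FSHR, 3.61, 3.99, 3.54 and 4.57 CPM in ID8 and 26.8, 52.5, 29.6 and 26.1 CPM in uninjected lavage. It fell in ID8-FSHR (log2 fold change -3.75 with SE 0.25, edgeR adjusted p = 5.21e-08) and in ID8 (log2 fold change -3.10 with SE 0.24, edgeR adjusted p = 1.96e-07). Its ligand Tnfsf8 had 4.25, 6.29, 2.68 and 5.46 CPM in ID8-FSHR, 3.48, 2.56, 2.55 and 2.66 CPM in ID8 and 9.16, 19.9, 15.4 and 12.8 CPM in uninjected lavage. Tnfsf8 fell too, in ID8-FSHR (log2 fold change -1.61 with SE 0.27, edgeR adjusted p = 0.000174) and in ID8 (log2 fold change -2.34 with SE 0.28, edgeR adjusted p = 8.9e-06), and neither gene of this pair had a tumour library in the uninjected range.

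All 10 B cell markers fell in both tumour groups, so 5 members known from B cells were also read against the mean of those markers in the same library, as log2(CPM + 0.5). On this scale Cd40 stood higher by 1.42 in ID8-FSHR and by 1.37 in ID8 than in uninjected lavage, a smaller fall than that of the markers. Ltb stood higher by 0.81 in ID8-FSHR and 0.53 in ID8, and Tnfrsf13b by 0.42 and 0.38. For these 3 genes the groups did not overlap, and the two-sided exact permutation test over libraries gave p = 0.0286, the smallest that 4 against 4 can give, in both comparisons. After adjustment over 52 such tests this was 0.0465, a margin that was lost, at no less than 0.0531, when the median of the markers replaced their mean.

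Tnfrsf13c differed by 0.22 in ID8-FSHR (exact permutation p = 0.3429) and 0.35 in ID8 (exact permutation p = 0.0857) relative to the B cell markers. Tnfrsf8 differed by -0.44 in ID8-FSHR (exact permutation p = 0.2571) and -0.02 in ID8 (exact permutation p = 0.9714). For these 2 receptors the tumour libraries overlapped the uninjected ones. Cd40 and Ltb are also made by other leukocytes, whose part in the difference was not tested.

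Members known from leukocytes at large were read in the same way against 10 pan-leukocyte markers, all of which fell in both tumour groups. On this scale most of these members stood higher in both tumour groups, and only Tnfsf13b stood lower. Tnfrsf1a stood higher by 1.39 in ID8-FSHR and 1.64 in ID8 (exact permutation p = 0.0286 in each). Tnfrsf1b stood higher by 0.69 in ID8-FSHR and 1.15 in ID8, and Fas by 0.58 and 0.72 (exact permutation p = 0.0286 in each). Tnfrsf1a is not restricted to leukocytes, and the mesothelial and tumour markers, given above, were higher in both tumour groups, as was the summed level of 5 fibroblast markers, at 174 to 401 CPM in ID8-FSHR and 424 to 523 CPM in ID8, against 2.23 to 8.46 CPM in uninjected lavage. The part of these cells in the Tnfrsf1a difference was not tested. Tnf differed by 0.31 in ID8-FSHR (exact permutation p = 0.2571) and 0.40 in ID8 (exact permutation p = 0.0286), and Tnfsf13b by -1.35 in ID8-FSHR (exact permutation p = 0.0286) and -0.57 in ID8 (exact permutation p = 0.0857). Against 10 T cell markers, Tnfsf8 differed by -1.63 in ID8-FSHR and -1.20 in ID8 (exact permutation p = 0.0286 in each). Lta differed by -1.82 in ID8-FSHR and -0.77 in ID8 (exact permutation p = 0.0286 in each). Tnfrsf25 stood higher by 2.00 in ID8 (exact permutation p = 0.0286) and by 0.65 in ID8-FSHR (exact permutation p = 0.2). The other members read against this list did not reach the smallest p in either comparison. None of these passed after adjustment when the median of the markers replaced their mean.

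**Figure D3:**
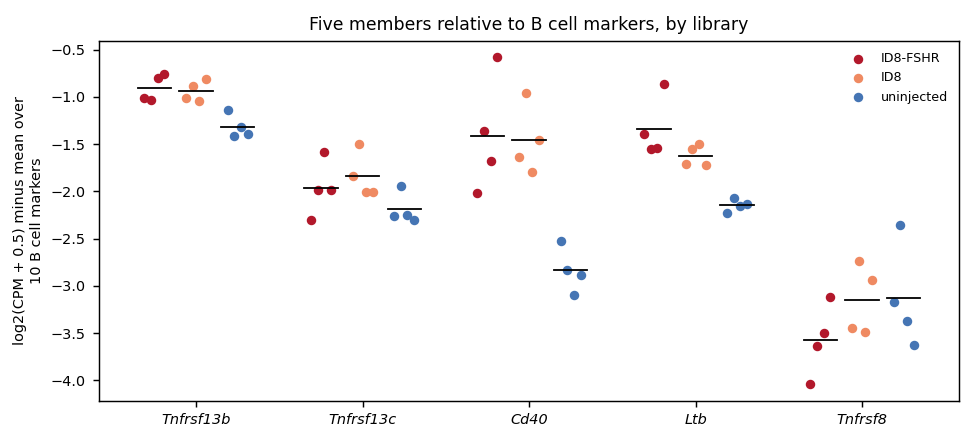
Log2(CPM + 0.5) of 5 members minus the mean over 10 B cell markers in the same library, for the 4 ID8-FSHR, 4 ID8 and 4 uninjected libraries (points, with lines for group means). The tumour libraries lie above the uninjected ones for Cd40, Ltb and Tnfrsf13b and overlap them for Tnfrsf13c and Tnfrsf8.

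The largest rises were in the receptors Tnfrsf12a and Tnfrsf10b and in the ligand Tnfsf15. Tnfrsf12a, also named Fn14 (ENSMUSG00000023905.15, chromosome 17, 23675445 to 23677468, minus strand of GRCm38), is the injury-induced receptor of the cytokine TWEAK (Tnfsf12). Tnfrsf12a had 37.1, 16.3, 25.2 and 44.6 CPM in ID8-FSHR, 42.6, 30.4, 29.2 and 40.3 CPM in ID8 and 1.87, 1.22, 1.62 and 1.63 CPM in uninjected lavage. All tumour libraries lay far above the uninjected ones, with ID8-FSHR replicate 2 the lowest among them. The rise was 19.4-fold in ID8-FSHR (log2 fold change 4.28 with SE 0.30, edgeR adjusted p = 7.93e-08) and 22.5-fold in ID8 (log2 fold change 4.49 with SE 0.30, edgeR adjusted p = 5.3e-08).

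Its ligand went the opposite way. Tnfsf12 had 19.1, 18.5, 18.1 and 15.7 CPM in ID8-FSHR, 24.1, 21.0, 23.9 and 23.8 CPM in ID8 and 33.8, 27.6, 27.3 and 29.0 CPM in uninjected lavage. The order was uninjected above ID8 above ID8-FSHR, with no overlap between any of the groups. Tnfsf12 fell in ID8-FSHR (log2 fold change -0.72 with SE 0.09, edgeR adjusted p = 1.59e-05) and in ID8 (log2 fold change -0.34 with SE 0.09, edgeR adjusted p = 0.00524), and it was lower in ID8-FSHR than in ID8 (log2 fold change -0.38 with SE 0.09, edgeR adjusted p = 0.0195). The ID8 call was lost under total count scaling (adjusted p = 0.196), and the difference between the tumour groups under removal of ID8-FSHR replicate 4 (adjusted p = 0.0582) and removal of ID8 replicate 1, 3 and 4 (adjusted p = 0.0574, 0.0595 and 0.0625).

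Tnfrsf10b (ENSMUSG00000022074.6, chromosome 14, 69767472 to 69784411, plus strand of GRCm38) is the death receptor of the ligand TRAIL, the product of Tnfsf10. Tnfrsf10b had 8.51, 4.46, 8.21 and 7.83 CPM in ID8-FSHR, 11.4, 8.10, 11.6 and 9.49 CPM in ID8 and 0.395, 0.332, 0.141 and 1.00 CPM in uninjected lavage. It rose 15.6-fold in ID8-FSHR (log2 fold change 3.97 with SE 0.42, edgeR adjusted p = 3.03e-06) and 21.9-fold in ID8 (log2 fold change 4.45 with SE 0.43, edgeR adjusted p = 1.18e-06). Without uninjected replicate 4, the highest of its group, the log2 fold changes were 4.63 in ID8-FSHR and 5.12 in ID8. The mesothelial and tumour markers were higher in both tumour groups too, and ID8-FSHR replicate 2 was lowest of the tumour libraries for those markers and for both receptors. By rising marker sum, the tumour libraries were ID8-FSHR replicates 2, 4, 3 and 1, then ID8 replicates 2, 3, 1 and 4. In this order Tnfrsf12a stood at 16.3, 44.6, 25.2, 37.1, 30.4, 29.2, 42.6 and 40.3 CPM. Tnfrsf10b stood at 4.46, 7.83, 8.21, 8.51, 8.10, 11.6, 11.4 and 9.49 CPM. The part of tumour cells in these rises was not tested.

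Tnfsf15 (TL1A), a T cell costimulator, had 1.36, 0.756, 2.14 and 2.48 CPM in ID8-FSHR, 1.26, 0.927, 1.14 and 0.735 CPM in ID8 and 0.0395, 0.0738, 0 and 0 CPM in uninjected lavage. It was nearly absent from uninjected lavage, where the counts were 2, 4, 0 and 0. Tnfsf15 rose in ID8-FSHR (log2 fold change 5.72 with SE 0.66, edgeR adjusted p = 6.63e-06) and in ID8 (log2 fold change 4.99 with SE 0.66, edgeR adjusted p = 2.35e-05), with values that depend on those few counts: without uninjected replicate 2 the log2 fold changes were 6.72 in ID8-FSHR and 5.99 in ID8. Its death-domain receptor Tnfrsf25 had 1.80, 1.13, 1.94 and 1.75 CPM in ID8-FSHR, 1.97, 2.28, 2.59 and 2.00 CPM in ID8 and 0.552, 1.03, 0.768 and 0.762 CPM in uninjected lavage. Tnfrsf25 rose as well, in ID8-FSHR (log2 fold change 1.09 with SE 0.25, edgeR adjusted p = 0.00181) and in ID8 (log2 fold change 1.50 with SE 0.25, edgeR adjusted p = 0.000153). Of 10 T cell markers, 9 were lower in ID8 and none was called in ID8-FSHR, against uninjected lavage. Which cells carried Tnfrsf25 was not tested.

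The OX40 and GITR pairs are costimulators of T cells. Tnfsf4 (OX40 ligand) had 0.0633, 0, 0.160 and 0 CPM in ID8-FSHR, 0.0296, 0, 0.0398 and 0.210 CPM in ID8 and 0.335, 0.332, 0.626 and 0.828 CPM in uninjected lavage. Tnfsf4 fell in ID8-FSHR (log2 fold change -3.20 with SE 0.99, edgeR adjusted p = 0.0125) and in ID8 (log2 fold change -2.86 with SE 0.96, edgeR adjusted p = 0.0189) at levels of a few counts, with log2 fold changes of -4.39 without ID8-FSHR replicate 3 and -4.35 without ID8 replicate 4. The ID8 call was lost under removal of ID8 replicate 1 and 3 (adjusted p = 0.0612 and 0.0541) and removal of uninjected replicate 4 (adjusted p = 0.0541). Its receptor Tnfrsf4 had 1.11, 2.33, 1.30 and 2.26 CPM in ID8-FSHR, 0.903, 1.13, 0.478 and 1.10 CPM in ID8 and 1.20, 1.27, 1.23 and 1.79 CPM in uninjected lavage and was not called. The GITR ligand Tnfsf18 had 0.348, 0.358, 0 and 0.219 CPM in ID8-FSHR, 0.118, 0.161, 0.259 and 0.210 CPM in ID8 and 1.14, 0.572, 1.29 and 0.806 CPM in uninjected lavage. The tumour libraries all lay below the uninjected ones. Tnfsf18 fell in ID8-FSHR (log2 fold change -2.02 with SE 0.65, edgeR adjusted p = 0.0151) and in ID8 (log2 fold change -2.34 with SE 0.66, edgeR adjusted p = 0.00738). GITR, Tnfrsf18, had 2.17, 6.07, 3.29 and 3.91 CPM in ID8-FSHR, 2.58, 2.00, 2.93 and 2.10 CPM in ID8 and 6.29, 6.83, 8.57 and 7.65 CPM in uninjected lavage. Tnfrsf18 fell in ID8-FSHR (log2 fold change -0.93 with SE 0.26, edgeR adjusted p = 0.00735) and in ID8 (log2 fold change -1.61 with SE 0.27, edgeR adjusted p = 0.000163), and its exons overlap another gene.

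The RANK pair is known from bone and lymph node development. Tnfsf11 (RANK ligand) had 0.348, 0.995, 0.280 and 0.767 CPM in ID8-FSHR, 0.266, 0.363, 0.0797 and 0.175 CPM in ID8 and 0.237, 0.332, 0.242 and 0.196 CPM in uninjected lavage and was not called in ID8-FSHR (log2 fold change 1.23 with SE 0.51, edgeR adjusted p = 0.0508) or in ID8 (log2 fold change -0.19 with SE 0.53, edgeR adjusted p = 0.771). In ID8-FSHR it passed as higher under DESeq2 (adjusted p = 0.0344), median-of-ratios size factors (adjusted p = 0.0426), total count scaling (adjusted p = 0.0274), a fit of only the 2 groups (adjusted p = 0.0471) and removal of ID8-FSHR replicate 1 and 3 (adjusted p = 0.0374 and 0.028). RANK, Tnfrsf11a, had 12.02, 25.1, 13.7 and 18.4 CPM in ID8-FSHR, 11.2, 13.3, 12.01 and 13.5 CPM in ID8 and 23.9, 19.1, 26.9 and 24.9 CPM in uninjected lavage. It fell in ID8 (log2 fold change -0.92 with SE 0.20, edgeR adjusted p = 0.00111) and was not called in ID8-FSHR (log2 fold change -0.45 with SE 0.19, edgeR adjusted p = 0.0556). In ID8-FSHR it passed as lower under a filter of at least 1 CPM in 4 libraries (adjusted p = 0.0449), a replicate block (adjusted p = 0.0488), removal of ID8-FSHR replicate 2 (adjusted p = 0.00441) and removal of uninjected replicate 2 (adjusted p = 0.0361). Tnfsf9, the ligand of Tnfrsf9, had 0.759, 1.47, 1.08 and 1.37 CPM in ID8-FSHR, 0.681, 1.57, 0.757 and 0.368 CPM in ID8 and 1.26, 0.812, 1.49 and 0.806 CPM in uninjected lavage and was not called in any comparison.

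Fas, the death receptor of activated lymphocytes and many other cells, had 13.1, 17.5, 14.4 and 14.2 CPM in ID8-FSHR, 12.9, 13.5, 12.2 and 12.4 CPM in ID8 and 19.5, 22.7, 17.9 and 19.1 CPM in uninjected lavage. The falls were modest, in ID8-FSHR (log2 fold change -0.42 with SE 0.10, edgeR adjusted p = 0.00339) and in ID8 (log2 fold change -0.63 with SE 0.10, edgeR adjusted p = 0.000161), and with scaling by total counts the ID8-FSHR call was lost (edgeR adjusted p = 0.0629). The family's largest fall in ID8-FSHR was in Tnfrsf19, a receptor of epithelial and neural tissue. Tnfrsf19, also named TROY (ENSMUSG00000060548.13, chromosome 14, 60963875 to 61046490, minus strand of GRCm38), had 0.348, 0.259, 0.401 and 0.183 CPM in ID8-FSHR, 1.24, 0.645, 1.47 and 0.910 CPM in ID8 and 7.22, 9.22, 6.38 and 7.99 CPM in uninjected lavage. Its 3 groups did not overlap: ID8-FSHR was lowest, ID8 intermediate and uninjected lavage highest. Tnfrsf19 fell in ID8-FSHR (log2 fold change -4.68 with SE 0.31, edgeR adjusted p = 4.68e-08) and in ID8 (log2 fold change -2.85 with SE 0.28, edgeR adjusted p = 1.36e-06).

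Tnfrsf22, Tnfrsf23 and Tnfrsf26 form a mouse gene cluster on chromosome 7, and the first 2 are closely related decoy receptors of TRAIL whose reads could be shared, so their separate values are uncertain. Tnfrsf22 fell in ID8-FSHR (log2 fold change -1.42 with SE 0.18, edgeR adjusted p = 1.82e-05) and in ID8 (log2 fold change -1.24 with SE 0.18, edgeR adjusted p = 5.67e-05). Tnfrsf23 fell in ID8 (log2 fold change -0.61 with SE 0.18, edgeR adjusted p = 0.00911) and was not called in ID8-FSHR (log2 fold change -0.13 with SE 0.18, edgeR adjusted p = 0.542). Tnfrsf21 (DR6) passed as lower in ID8-FSHR (log2 fold change -0.44 with SE 0.16, edgeR adjusted p = 0.0314) and in ID8 (log2 fold change -0.41 with SE 0.16, edgeR adjusted p = 0.0438). Its ID8-FSHR call was lost under no filter on low counts (adjusted p = 0.0617), total count scaling (adjusted p = 0.154), a fit of only the 2 groups (adjusted p = 0.063), removal of ID8-FSHR replicate 1, 3 and 4 (adjusted p = 0.0889, 0.0884 and 0.0955) and removal of uninjected replicate 1, 3 and 4 (adjusted p = 0.0758, 0.0549 and 0.0505). Its ID8 call was lost under DESeq2 (adjusted p = 0.0715), median-of-ratios size factors (adjusted p = 0.0661), no filter on low counts (adjusted p = 0.0861), total count scaling (adjusted p = 0.229), removal of ID8 replicate 1, 3 and 4 (adjusted p = 0.0971, 0.108 and 0.0784) and removal of uninjected replicate 1, 2, 3 and 4 (adjusted p = 0.0996, 0.0647, 0.0727 and 0.0668).

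Of the 7 members that differed between the tumour groups, Tnfrsf9, Fasl, Tnfsf10 and Cd27 were higher in ID8-FSHR and are known from T and NK cells, though not from them alone. Tnfrsf9, a costimulatory receptor of activated T and NK cells (ENSMUSG00000028965.13, chromosome 4, 150914562 to 150946102, plus strand of GRCm38), had 1.14, 8.06, 5.39 and 8.80 CPM in ID8-FSHR, 2.24, 0.927, 0.597 and 1.56 CPM in ID8 and 0.789, 1.29, 1.09 and 1.00 CPM in uninjected lavage. In ID8-FSHR, replicate 1 lay in the range of the other groups and replicates 2, 3 and 4 above it. Tnfrsf9 was higher in ID8-FSHR than in ID8 (log2 fold change 2.12 with SE 0.53, edgeR adjusted p = 0.0237) and than in uninjected lavage (log2 fold change 2.48 with SE 0.55, edgeR adjusted p = 0.00145), while ID8 against uninjected lavage was not called (log2 fold change 0.36 with SE 0.54, edgeR adjusted p = 0.578). The difference between the tumour groups was lost under no filter on low counts (adjusted p = 0.0565), a replicate block (adjusted p = 0.0731), a fit of only the 2 groups (adjusted p = 0.0608), removal of ID8-FSHR replicate 2 and 4 (adjusted p = 0.0553 and 0.0683) and removal of ID8 replicate 2, 3 and 4 (adjusted p = 0.0584, 0.0733 and 0.0627).

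Fasl, the death ligand of cytotoxic lymphocytes, had 0.664, 1.43, 1.48 and 3.41 CPM in ID8-FSHR, 0.711, 0.504, 0.279 and 0.350 CPM in ID8 and 0.395, 0.720, 0.323 and 0.937 CPM in uninjected lavage. It was higher in ID8-FSHR than in ID8 (log2 fold change 1.91 with SE 0.51, edgeR adjusted p = 0.0309) and than in uninjected lavage (log2 fold change 1.56 with SE 0.50, edgeR adjusted p = 0.016). ID8-FSHR replicate 4 was the highest library: without it the call against uninjected lavage was lost (edgeR adjusted p = 0.0812). The call against ID8 was lost under a replicate block (adjusted p = 0.055), a fit of only the 2 groups (adjusted p = 0.0501), removal of ID8-FSHR replicate 4 (adjusted p = 0.106) and removal of ID8 replicate 2, 3 and 4 (adjusted p = 0.0582, 0.0945 and 0.0962). Tnfsf10 (TRAIL) had 10.7, 24.8, 18.5 and 34.2 CPM in ID8-FSHR, 10.2, 14.8, 9.90 and 9.86 CPM in ID8 and 11.2, 11.00, 11.1 and 11.9 CPM in uninjected lavage. It was higher in ID8-FSHR than in ID8 (log2 fold change 0.98 with SE 0.27, edgeR adjusted p = 0.0364) and than in uninjected lavage (log2 fold change 0.96 with SE 0.27, edgeR adjusted p = 0.00731), and ID8 did not differ from uninjected lavage beyond the threshold (log2 fold change -0.01 with SE 0.27, edgeR adjusted p = 0.97). The difference from ID8 was lost under no filter on low counts (adjusted p = 0.0845), a replicate block (adjusted p = 0.0512), a fit of only the 2 groups (adjusted p = 0.0898), removal of ID8-FSHR replicate 2 and 4 (adjusted p = 0.0886 and 0.106) and removal of ID8 replicate 1, 3 and 4 (adjusted p = 0.0913, 0.104 and 0.106).

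Cd27, a costimulatory receptor of T, NK and memory B cells whose exons overlap another gene, ranged over 2.93 to 7.02 CPM in ID8-FSHR, 2.30 to 2.93 CPM in ID8 and 3.22 to 9.11 CPM in uninjected lavage. It was higher in ID8-FSHR than in ID8 (log2 fold change 1.10 with SE 0.33, edgeR adjusted p = 0.0494) and fell in ID8 against uninjected lavage (log2 fold change -1.16 with SE 0.33, edgeR adjusted p = 0.00792). The difference between the tumour groups was lost under median-of-ratios size factors (adjusted p = 0.0518), no filter on low counts (adjusted p = 0.0601), total count scaling (adjusted p = 0.0526), removal of ID8-FSHR replicate 2, 3 and 4 (adjusted p = 0.104, 0.0638 and 0.128) and removal of ID8 replicate 1, 2, 3 and 4 (adjusted p = 0.113, 0.0913, 0.0888 and 0.125).

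Between the tumour groups, markers of T and NK cells were higher in ID8-FSHR, as were these 4 genes. Against uninjected lavage, Tnfrsf9, Fasl and Tnfsf10 rose in ID8-FSHR and Cd27 was not called. There 6 of 7 NK cell markers were higher, and none of 10 T cell markers was called. The summed level of 7 NK cell markers was 29.6, 163, 85.6 and 211 CPM in ID8-FSHR, 15.3 to 46.1 CPM in ID8 and 24.2 to 37.7 CPM in uninjected lavage, and that of 10 T cell markers was 78.6 to 162 CPM in ID8-FSHR, 49.1 to 60.9 CPM in ID8 and 60.1 to 179 CPM in uninjected lavage. All 7 NK cell markers and 7 of the 10 T cell markers were higher in ID8-FSHR than in ID8 by edgeR's test. ID8-FSHR replicates 1, 3, 2 and 4 stood in this order, low to high, for the NK cell markers, for Tnfrsf9 and for Tnfsf10. For Fasl the order was 1, 2, 3 and 4, for Cd27 it was 1, 3, 4 and 2, and for the T cell markers it was 3, 1, 4 and 2. The part of these cells in the 4 differences was not tested.

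The 2 members that kept their difference between the tumour groups in every alternative tried were Tnfrsf26 and Tnfrsf19. Tnfrsf26, a receptor related to the TRAIL decoys (ENSMUSG00000045362.8, chromosome 7, 143607659 to 143628722, minus strand of GRCm38), had 11.7, 19.7, 12.9 and 13.6 CPM in ID8-FSHR, 8.16, 9.88, 8.74 and 7.48 CPM in ID8 and 17.1, 23.5, 21.2 and 16.9 CPM in uninjected lavage. Its exons, and those of Tnfrsf23, overlap a gene on the opposite strand, and the strand setting of the counting is not given. Tnfrsf26 was higher in every ID8-FSHR library than in any ID8 library (log2 fold change 0.76 with SE 0.17, edgeR adjusted p = 0.0129). Against uninjected lavage it fell in ID8 (log2 fold change -1.20 with SE 0.17, edgeR adjusted p = 3.89e-05), and in ID8-FSHR a smaller difference (log2 fold change -0.44 with SE 0.17, edgeR adjusted p = 0.0329) was lost under total count scaling (adjusted p = 0.179), a fit of only the 2 groups (adjusted p = 0.0576), removal of ID8-FSHR replicate 1, 3 and 4 (adjusted p = 0.0936, 0.0887 and 0.0789) and removal of uninjected replicate 2 and 3 (adjusted p = 0.106 and 0.0791). Tnfrsf19, given above, was lower in ID8-FSHR than in ID8 (log2 fold change -1.84 with SE 0.30, edgeR adjusted p = 0.00193), without overlap. Groups did not overlap for 6 of the 38 members in this comparison, beside 18.5% of all tested genes.

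Another 8 receptors and ligands passed between ID8-FSHR and ID8 only under some of the alternatives tried. Besides Tnfrsf14, given above, Tnfrsf8 passed as lower in ID8-FSHR under DESeq2 (adjusted p = 0.0395) and a replicate block (adjusted p = 0.0444). Tnfsf8 passed as higher under DESeq2 (adjusted p = 0.0482) and removal of ID8-FSHR replicate 3 (adjusted p = 0.0384), and Tnfrsf4 under DESeq2 (adjusted p = 0.0296) and removal of ID8-FSHR replicate 1 (adjusted p = 0.0346). Tnfrsf18 and Tnfrsf11a passed as higher in ID8-FSHR without its replicate 1 (edgeR adjusted p = 0.0201 for Tnfrsf18 and 0.0333 for Tnfrsf11a). Tnfrsf21 passed as lower under removal of ID8-FSHR replicate 2 (adjusted p = 0.0417) and Tnfrsf23 as higher under removal of ID8 replicate 1 (adjusted p = 0.041).

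**Figure D4:**
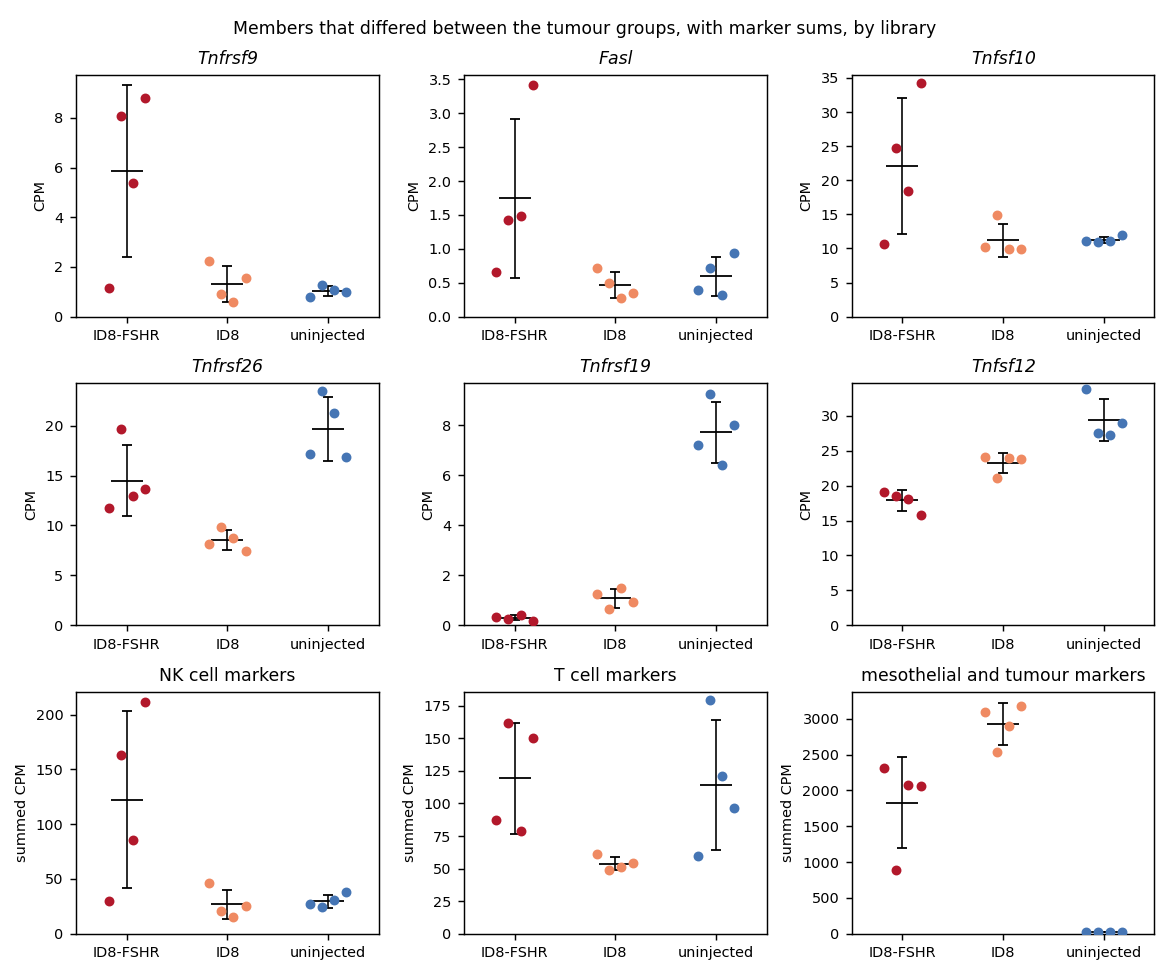
CPM in each library (points) with the group mean (line) and SD (bar) of 6 members that differed between ID8-FSHR and ID8 lavage, and the summed CPM of NK cell, T cell and mesothelial and tumour markers, with uninjected lavage beside them (n = 4 each). Tnfrsf26 and Tnfrsf19 separate the tumour groups completely, whereas for Tnfrsf9, Fasl and Tnfsf10 the ID8-FSHR libraries spread widely.

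Of 24 ligand and receptor pairs, 20 had both partners above the filter. In ID8-FSHR against uninjected lavage both partners rose in 3 pairs, both fell in 5 and they moved in opposite directions in 5. The opposite pairs were Ltb with Ltbr, Lta with Tnfrsf1a, Tnfsf12 with Tnfrsf12a, Tnfsf13 with Tnfrsf13b and Fasl with Fas. In ID8 against uninjected lavage both rose in 1 pair (Tnfsf15 with Tnfrsf25), both fell in 5 and 4 were opposite, the first 3 of those just named and Tnf with Tnfrsf1a. Between the tumour groups no pair had both partners called. Of all tested genes, 64.5% were called in ID8-FSHR and 64.1% in ID8 against uninjected lavage, and 11.6% between the tumour groups. Several genes, such as Tnfrsf1a and Ltbr, are in more than 1 pair, so the pairs are not independent. Some calls counted here, such as those of Tnfrsf1b, Tnfsf13 and Fasl in ID8-FSHR, were lost under alternatives given above.

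Levels of different genes were compared per length, as CPM per kb of merged exons in GENCODE M21. Tnfrsf1a ranked first of the family in every group, at 81.9 ± 3.30 in ID8-FSHR, 77.5 ± 4.21 in ID8 and 62.4 ± 4.71 CPM per kb in uninjected lavage (SD, n = 4 each). Tnfrsf1b ranked second in all 3 groups. The third rank went to Ltbr in both tumour groups, at 24.1 CPM per kb in ID8-FSHR and 23.7 in ID8, and to Ltb in uninjected lavage, at 42.8 ± 6.37 CPM per kb. In uninjected lavage Ltb and the next gene, Tnfrsf13b at 40.7 ± 4.05 CPM per kb, differed by less than their SD. Tnfrsf12a ranked 6 in ID8-FSHR, 4 in ID8 and 30 in uninjected lavage.

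**Figure D5:**
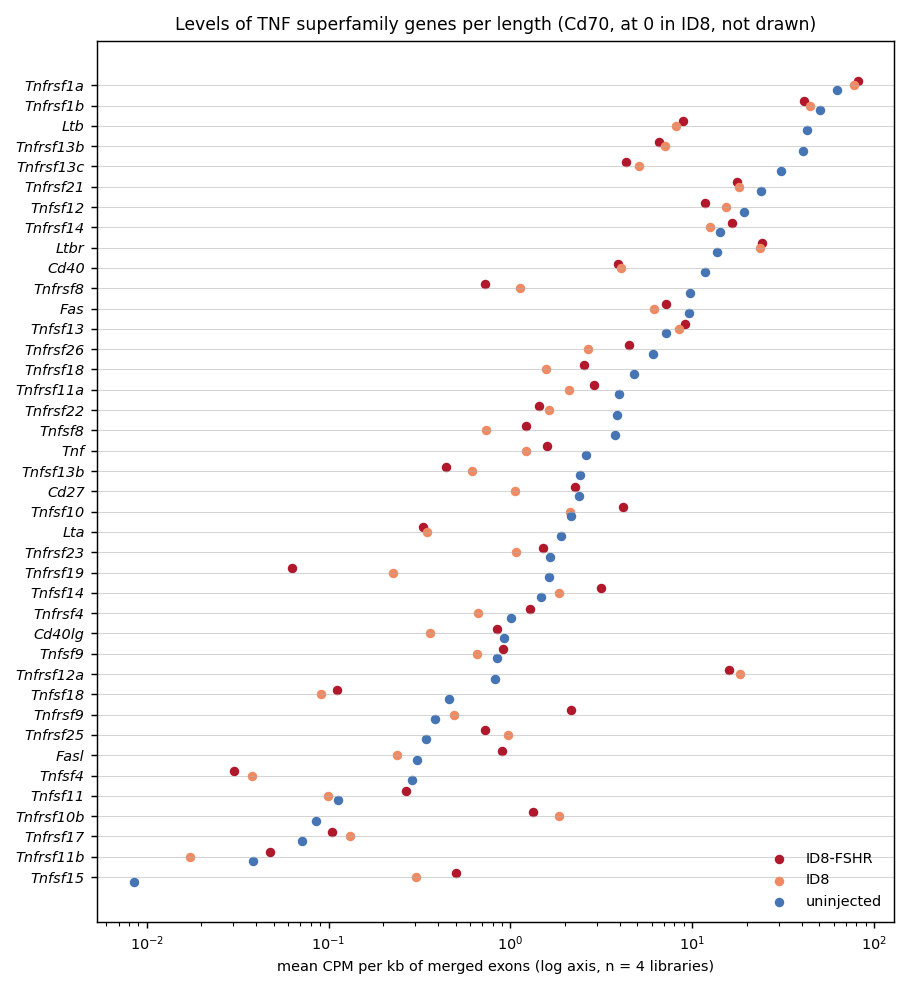
Mean CPM per kb of merged exons of each family gene (log axis) in ID8-FSHR, ID8 and uninjected lavage, n = 4 libraries each. Tnfrsf1a leads in each group, Ltb, Tnfrsf13b and Tnfrsf13c follow Tnfrsf1b in uninjected lavage only, and Cd70 is not drawn because it had 0 counts in ID8.

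Neighbouring family genes did not always move alike. Only members that follow each other along a chromosome were paired, so pairs with another member between them, such as Ltb and Lta, were not counted. Of 13 such pairs within 100 kb, 6 had both genes called in ID8-FSHR against uninjected lavage, 4 in the same direction and 2 in opposite ones. In ID8 these counts were 8, 6 and 2. Of all tested genes, 64.5% were called in ID8-FSHR and 64.1% in ID8, and the share among neighbours at large was not computed. Ltbr and Tnfrsf1a, 35.5 kb apart on chromosome 6, both rose, whereas Tnfsf15 rose and Tnfsf8 fell 86.2 kb apart on chromosome 4.

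The receptors act through intracellular adaptors, kinases and NF-kappaB. Of 23 receptor adaptors and kinases, 3 rose and 11 fell in ID8-FSHR against uninjected lavage, and 5 rose and 12 fell in ID8, with median log2 fold changes of -0.19 and -0.27 beside 0.00083 and -0.03 over all genes. The share called, either way, was below the 64.5% of all tested genes in ID8-FSHR and above their 64.1% in ID8. Birc3, an inhibitor of apoptosis bound to TRAF complexes, fell in ID8-FSHR (log2 fold change -1.19 with SE 0.11, edgeR adjusted p = 7.02e-07) and in ID8 (log2 fold change -1.37 with SE 0.11, edgeR adjusted p = 2.08e-07). Ikbkb, the kinase that releases NF-kappaB, fell in ID8-FSHR (log2 fold change -0.96 with SE 0.10, edgeR adjusted p = 1.6e-06) and in ID8 (log2 fold change -0.89 with SE 0.09, edgeR adjusted p = 3.18e-06). Traf2 was higher in ID8-FSHR (log2 fold change 0.45 with SE 0.09, edgeR adjusted p = 0.000574) and in ID8 (log2 fold change 0.61 with SE 0.09, edgeR adjusted p = 4.57e-05). Map3k14, the kinase of the non-canonical pathway, was lower in ID8-FSHR than in ID8 (log2 fold change -0.28 with SE 0.07, edgeR adjusted p = 0.0285).

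Of 13 NF-kappaB subunits and inhibitors, 2 rose and 5 fell in ID8-FSHR and 3 rose and 5 fell in ID8 against uninjected lavage, with medians of 0.01 and -0.17 (log2). The share called, either way, was below that of all tested genes in ID8-FSHR (64.5%) and in ID8 (64.1%). Rel, the subunit best known from lymphocytes, fell in ID8-FSHR (log2 fold change -1.25 with SE 0.09, edgeR adjusted p = 1.33e-07) and in ID8 (log2 fold change -1.39 with SE 0.09, edgeR adjusted p = 5.06e-08). Nfkb2, the precursor of the non-canonical subunit, rose in ID8-FSHR (log2 fold change 0.52 with SE 0.10, edgeR adjusted p = 0.00053) and in ID8 (log2 fold change 0.77 with SE 0.10, edgeR adjusted p = 1.97e-05). Tnip1, an inhibitor of TNF signalling, rose in ID8-FSHR (log2 fold change 1.59 with SE 0.15, edgeR adjusted p = 9.79e-07) and in ID8 (log2 fold change 1.91 with SE 0.15, edgeR adjusted p = 2e-07). None of the 13 was called between the tumour groups by edgeR's test.

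Of 9 genes of death-domain signalling, 5 rose and 2 fell in ID8-FSHR, and 2 rose and 2 fell in ID8, against uninjected lavage, with medians of 0.32 and -0.01 (log2). In ID8-FSHR the share called was above the 64.5% of all tested genes, and in ID8 it was below their 64.1%. Mlkl, the executioner of necroptosis, rose in ID8-FSHR (log2 fold change 2.06 with SE 0.27, edgeR adjusted p = 2.28e-05) and in ID8 (log2 fold change 1.40 with SE 0.27, edgeR adjusted p = 0.0005). Bid, which links death receptors to mitochondria, fell in ID8-FSHR (log2 fold change -1.09 with SE 0.10, edgeR adjusted p = 5.41e-07) and in ID8 (log2 fold change -1.20 with SE 0.10, edgeR adjusted p = 2.25e-07). Between the tumour groups, Casp8, the initiator caspase of death receptors, was higher in ID8-FSHR (log2 fold change 0.40 with SE 0.08, edgeR adjusted p = 0.00821). Over all 60 pathway genes 2 were higher and 3 lower there, a share below the 11.6% of all tested genes, and 12 were higher without ID8-FSHR replicate 1 and 1 lower without ID8 replicate 3.

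Of 7 genes of ligand processing, 2 rose and 0 fell in ID8-FSHR and 1 rose and 1 fell in ID8 against uninjected lavage, with medians of 0.06 and 0.17 (log2). Both shares were far below those of all tested genes, 64.5% in ID8-FSHR and 64.1% in ID8. Rhbdf2, which carries the sheddase of TNF to the surface, rose in ID8-FSHR (log2 fold change 1.61 with SE 0.13, edgeR adjusted p = 3.33e-07) and in ID8 (log2 fold change 1.91 with SE 0.13, edgeR adjusted p = 7.81e-08). Adam17, that sheddase, was lower in ID8 (log2 fold change -0.33 with SE 0.11, edgeR adjusted p = 0.0179) and not called in ID8-FSHR (log2 fold change -0.07 with SE 0.11, edgeR adjusted p = 0.594).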

How the data were processed

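Bulk RNA was measured in 12 lavage samples, 4 in each of 3 groups taken from the labels. Per the labels, RNA was column-extracted and ribosomal RNA was depleted before library preparation. The authors deposited unnormalized whole-number counts for each gene. They used STAR 2.7.9a, bcl2fastq 2.20 and, from Subread 1.6.4, featureCounts on GRCm38.p6, per the submitters' processing notes. Not given in the sources used here are the strand setting, how multimapping reads were treated and which annotation release was used. Of counts from 1 to 10, 74.6% to 77.0% were even in each library, as counting both mates of a fragment would give. Limits for few counts cover counting error only and may be too narrow.

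The counts were fitted in R 4.3.3 with edgeR 4.0.16 (quasi-likelihood F test, robust, TMM scaling, edgeR's default filter, group as the only term, all 12 libraries), and 16915 genes were tested. A gene is called where its adjusted p (Benjamini-Hochberg, all tested genes) was under 0.05. CPM are counts scaled by the effective library size. The p-values measure the spread between these libraries. In each of the 18 pairs of libraries of the same group, counts differed beyond sampling noise. Alternatives were DESeq2 1.42.0, median-of-ratios size factors, a fit of only the 2 groups compared, unfiltered genes, at least 1 CPM in 4 libraries, a replicate block, and leaving out each library in turn. Scaling by total counts was added after seeing the data.

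Values in every library are given for the 6 largest non-overlapping called rises and falls of each comparison and for partners of ligand and receptor pairs. From the pathway lists up to 5 genes with the smallest adjusted p in each comparison could be named, and some genes that this rule takes are left out. The members and all lists were chosen with earlier results of these data known.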

Additional observations from a re-analysis of the deposited data

Results flagged for a closer look

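In 10 of 114 groups (38 members in 3 groups), 1 library lay far from the other 3. Chance alone marks about 5% of such groups. In ID8-FSHR lavage, replicate 2 was the lowest library for Tnfrsf10b, at 4.46 CPM where the others lay between 7.83 and 8.51 CPM, and the highest for Tnfrsf21, at 108 CPM where the others lay between 59.3 and 64.0 CPM. This is the library that also stood apart on the first principal component.

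In ID8 lavage, replicate 2 was the lowest for Tnfrsf13b, at 15.7 CPM (others 21.4 to 21.9 CPM), the lowest for Tnfsf12, at 21.0 CPM (others 23.8 to 24.1 CPM), and the highest for Tnfsf10, at 14.8 CPM (others 9.86 to 10.2 CPM). ID8 replicate 3 was the highest for Cd27, at 2.93 CPM (others 2.30 to 2.35 CPM), and ID8 replicate 1 the highest for Tnfsf8, at 3.48 CPM (others 2.55 to 2.66 CPM). In uninjected lavage, replicate 2 was the highest for Tnfrsf8, at 52.5 CPM (others 26.1 to 29.6 CPM), replicate 1 the highest for Tnfsf13b, at 19.1 CPM (others 15.6 to 16.1 CPM), and replicate 4 the highest for Tnfrsf4, at 1.79 CPM (others 1.20 to 1.27 CPM).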

How the results depend on the processing

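No member changed direction among its called comparisons under any alternative tried. Calls kept in every alternative that tested the gene were 23 of 29 for ID8-FSHR against uninjected lavage, 24 of 28 for ID8 against uninjected lavage and 2 of 7 between the tumour groups. Some members of low count, such as Tnfsf18, were tested in 14 of the 15 alternatives. Genes called were 10913 for ID8-FSHR against uninjected lavage (10188 to 11166 leaving out 1 library), 10847 for ID8 against uninjected lavage (10160 to 10478) and 1962 between the tumour groups (961 to 3136), and 2918 of the last with DESeq2. Members higher in ID8-FSHR than in ID8 numbered 5, and 2 with no filter, with a replicate block or with only the 2 groups in the fit (1 to 9 leaving out 1 library). Members lower there numbered 2 (1 to 3), pathway genes higher 2 (2 to 12) and lower 3 (1 to 4). Pathway genes higher there were 5 with DESeq2 and 4 with total count scaling, and lower 1 with no filter. Total count scaling, chosen after seeing the data, brought the median of all genes to 0.20 (log2) in ID8-FSHR and 0.17 in ID8 against uninjected lavage. It gave 65.9% and 64.5% of calls higher, against 52.6% and 51.0%, and 25 pathway genes higher in ID8-FSHR in place of 14. Of 52 tests relative to marker lists, 32 passed, and 0 with the list median, where 28 had the smallest exact permutation p. Libraries of equal replicate number were little alike (correlations -0.11 to 0.19 over 12 pairs, 1 over 0.1), which cannot exclude pairing. Pairing by title number, which differs from the replicate number in ID8-FSHR, was not tried. With the replicate block 5574 genes were higher and 5092 lower in ID8-FSHR than in uninjected lavage. In ID8 5404 were higher and 5177 lower. The causes were not tested. Depth limits Cd70, Tnfrsf11b and Tnfrsf17, whose difference was not detectable.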

Other observations

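Family genes outside the Tnfsf and Tnfrsf names included ectodysplasin receptors of epithelium. Eda2r stood at 17.3 ± 6.14 CPM in ID8-FSHR and 38.0 ± 4.72 CPM in ID8, with 12 counts over the 4 uninjected libraries (SD, n = 4 each). Its level in ID8-FSHR was lower than in ID8 (log2 fold change -1.14, SE 0.26, edgeR adjusted p = 0.0148). Edar had 24 counts over the ID8-FSHR libraries, 108 over ID8 and 0 over uninjected lavage, and it was also lower in ID8-FSHR than in ID8 (log2 fold change -2.12, SE 0.43, edgeR adjusted p = 0.0136). The adaptor Edaradd fell in ID8-FSHR (log2 fold change -2.94, SE 0.20, edgeR adjusted p = 7.02e-08) and in ID8 (log2 fold change -2.80, SE 0.20, edgeR adjusted p = 9.82e-08) against uninjected lavage. Relt, a receptor of lymphoid tissue, fell in ID8-FSHR (log2 fold change -1.51, edgeR adjusted p = 5.72e-07) and in ID8 (log2 fold change -1.74, edgeR adjusted p = 1.65e-07). Of 9 mesothelial and tumour markers, 4 were lower in ID8-FSHR than in ID8 and 5 were not called, with a median log2 fold change of -0.60. The part of mesothelial and tumour cells in the Eda2r and Edar differences was not tested.

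Over the 8 tumour libraries, the 5 tested genes with the highest Pearson correlation of log2 CPM with Tnf were Prrt1 at 0.950, Mir6236 at 0.937, Nr1h3 at 0.934, Adap2 at 0.930 and Trim30d at 0.930. The libraries differ in cell composition, which all genes share, and the genes were picked as the highest of 16915, so these values are a description.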
